A study of Mus musculus with 18 samples.

Results

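The genes described here are 42 receptor tyrosine kinase genes of the mouse, taken as a list of symbols, with no threshold on a measured value, and matched to the Ensembl identifiers of the 43629 genes counted. All 42 were found in the table, and 26 of the 42 had enough reads to be tested. Expression was measured by QuantSeq 3′ mRNA sequencing in AT3 cells, a mouse mammary carcinoma line that serves as a model of triple-negative breast cancer, in 18 libraries. The cells received DMSO, A-241 at 250 nM or A-485 at 1000 nM, which are chemically distinct inhibitors of the catalytic acetyltransferase domain of P300 and CBP, for 1 h, followed by recombinant murine interferon-γ (IFNγ) or vehicle for 2 h. The 6 conditions of 3 libraries each were therefore DMSO, A-241, A-485, IFNγ, A-241+IFNγ and A-485+IFNγ, all collected at 3 h. AT3 is a single cultured line, all conditions share its genotype, and DMSO is the vehicle control for both inhibitors. The sample labels call the triplicates biological and the methods of the study call them technical, so the p-values measure the spread between these libraries, which may be technical.

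Receptor tyrosine kinases are single-pass membrane proteins that bind a ligand outside the cell and phosphorylate tyrosines inside it. Binding brings receptor chains together, the kinase domains phosphorylate each other, and adaptors such as Grb2, Shc1 and the p85 subunit of PI3-kinase dock on the phosphotyrosines and pass the signal to the RAS-MAPK and PI3K-AKT pathways. In mammary epithelium and its tumours the ErbB receptors, Met and the FGF receptors are known for driving growth, and the Eph receptors for sorting cells at contacts. P300 and CBP acetylate histones at enhancers and promoters.

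The libraries held between 3417167 and 7856830 counts. DMSO replicate 3 and IFNγ replicate 2 stood apart from the other 16 libraries. In log2 CPM over all genes tested, they deviated from the other libraries of their condition by 1.1 and 1.13 (root mean square), where the other libraries deviated by 0.339 to 0.767, and the ribosomal-repeat gene Gm42418 took 20.1% and 23.0% of their counts, against 7.11% to 16.2%. The response to IFNγ was present, with Irf1, Gbp2, Socs1 and Tap1 called higher with IFNγ than with DMSO by edgeR. Of 10 epithelial markers 8 were tested, and their summed level was 1726 to 2053 CPM, the count relative to the scaled library total, in DMSO, 1105 to 1163 CPM with A-241 and 1266 to 1379 CPM with A-485. Of 8 mesenchymal markers 7 were tested, and their summed level was 736 to 779 CPM in DMSO, 443 to 505 CPM with A-241 and 570 to 614 CPM with A-485. The ranges with either inhibitor lay below those of DMSO in both lists, and their part in the receptor results was not tested. With IFNγ the epithelial sums were 1520 to 1730 CPM, with A-241+IFNγ 1092 to 1253 CPM and with A-485+IFNγ 1175 to 1342 CPM, and the mesenchymal sums 720 to 834, 476 to 556 and 616 to 714 CPM. Markers of other cells were scarce. The macrophage genes Adgre1, C1qa and C1qb and the endothelial genes Cdh5, Cldn5, Sox17 and Sox18 had no count in any library, and the fibroblast gene Lum had none. The whole lists summed to 10.2 to 47.7 CPM over the libraries for 10 macrophage markers, of which 7 exceeded 3 counts in some library, to 6.36 to 14.9 CPM for 9 endothelial markers, of which 2 did, and to 31.5 to 70.5 CPM for 8 fibroblast markers, of which 5 did.

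Counts on the 42 genes summed to 43595, and a pair of genes held most of them. Ryk, a Wnt-binding receptor with an inactive kinase, had 13114 counts (30.1%), and Ddr1, a collagen receptor, had 11396 (26.1%). The mean level over the 18 libraries was 133 CPM for Ryk, 113 CPM for Ddr1, 41.5 CPM for Fgfr1 and 35.3 CPM for Tyro3. It was 19.5 CPM for Met and 15.1 CPM for Erbb2, and every other member was below these 6. As means over all conditions these values do not give the order within each, and with IFNγ Ddr1 had 4400 counts and Ryk 2962. Reads of 3′ libraries come from transcript ends, so the levels were not divided by gene length, and they rank the genes only roughly. Mst1r, Fgfr4 and Tek had no count in any library. The receptors with at most 3 counts in every library numbered 8, among them Erbb4, the fourth ErbB receptor, with 2 counts in all, Csf1r, the receptor of Csf1 and Il34, with 6, Flt4, a VEGF-C receptor, with 6, Ror2, a Wnt5a receptor, with 11, and Tie1, an orphan endothelial receptor, with 1. The other members below the count filter were Mertk (60 counts over the 18 libraries), Pdgfrb (56), Kdr (26), Ephb1 (46), Ephb2 (24), Ror1 (51), Ret (23) and Ltk (79). Such sums do not show differences between conditions, which were not tested for these members. Kdr had 0 counts in DMSO and 15 with IFNγ, and Ror1 had 17 and 15, both picked after their values were seen. A count of 0 allows up to 3 counts, which is 0.369 to 1.04 CPM in these libraries, so low transcript levels of the 3 receptors without a count were not detectable at this depth. The other 13 had counts in at least 1 library, up to 14 for Pdgfrb, but too few to be tested.

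The filter kept a gene that reached 2.05 CPM in at least 3 libraries. Of the 26 members tested, 15 reached it in all 18 libraries, whereas Pdgfra reached it in the DMSO libraries alone and Kit, Epha4 and Fgfr2 in libraries of DMSO and IFNγ alone. These 4 genes passed through the conditions without inhibitor, so their being lower with an inhibitor is partly built into the list of genes tested. Epha2 reached 2.05 CPM in 4 libraries, of DMSO, IFNγ and A-241+IFNγ, so the same holds for its being lower with A-485+IFNγ. Reads were counted without strand and for each gene they touched, so genes that share exon bases with a neighbour are less certain: Erbb2 with Mien1 (9 bases), Ephb4 with Zan (33), Fgfr1 with Gm16159 (164), Ddr1 with Gm4577 (216), Ddr2 with 3110045C21Rik (90), Fgfr2 with Ctbp2 (314), Fgfr3 with G630022F23Rik (998, a gene without a row in the count table), Epha1 with Zyx (236) and Pdgfra with Mir7025 and neighbours (652).

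**Figure D1:**
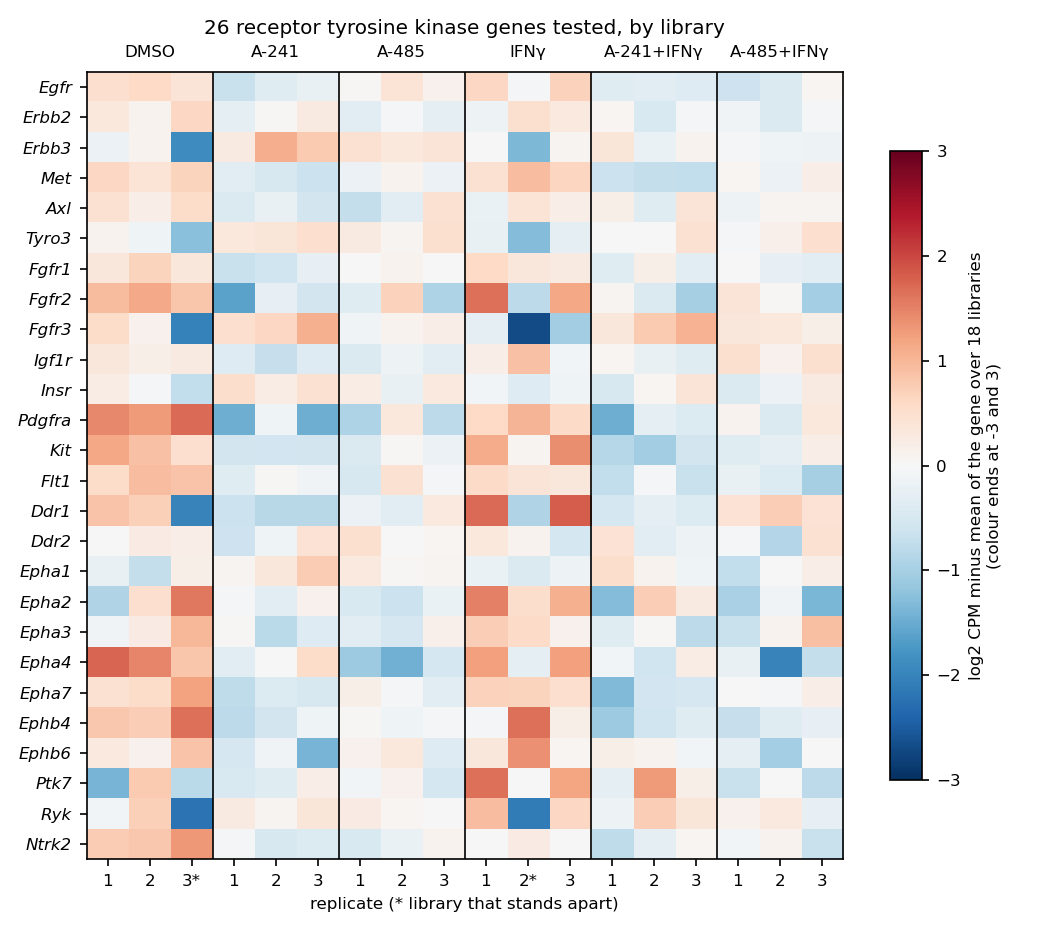
Levels of the 26 receptor genes tested (rows) in each of the 18 libraries (columns, 3 per condition), as log2 CPM minus the mean of the gene over all libraries, with red above and blue below that mean. Pdgfra, Kit, Epha7 and Met are mostly red in DMSO and IFNγ and pale or blue with either inhibitor, and Ddr1, Ryk and Fgfr3 are blue in both starred libraries, DMSO replicate 3 and IFNγ replicate 2.

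Promoter sequences are shown for receptor genes called lower with A-241 without or with IFNγ, since the inhibited enzymes are known to act on chromatin at promoters. RefSeq windows (build GRCm38.p6) were found for 36 of the 42 members, and the 250 bases before the transcription start are given 5′ to 3′ in the direction of the gene. Capitals mark a match to any of 6 motifs, which were searched on both strands. They were the GC box with the letters GGGCGG, the cyclic AMP response element (CRE) with TGACGTCA, the interferon-γ activated sequence (GAS) with TTCNNNGAA and the core of the interferon-stimulated response element (ISRE). The others were the TATA box, read as TATAAA, and the site of the AP-1 factors, read as TGANTCA. No match of one motif overlapped a match of another. Fgfr1 has no window in the table.
Met (chr6:17463707-17463956, + strand): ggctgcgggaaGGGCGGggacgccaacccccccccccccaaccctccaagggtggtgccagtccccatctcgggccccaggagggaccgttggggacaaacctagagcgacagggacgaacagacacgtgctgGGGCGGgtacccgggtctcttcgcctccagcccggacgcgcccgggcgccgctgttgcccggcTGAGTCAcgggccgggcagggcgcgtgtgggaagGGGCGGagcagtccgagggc
Kit (chr5:75574737-75574986, + strand): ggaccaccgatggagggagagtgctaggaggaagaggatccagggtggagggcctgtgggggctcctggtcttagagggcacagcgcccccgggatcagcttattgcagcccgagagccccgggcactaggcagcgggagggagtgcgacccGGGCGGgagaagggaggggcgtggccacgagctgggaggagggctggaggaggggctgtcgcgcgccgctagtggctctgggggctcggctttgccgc
Pdgfra (chr5:75152001-75152250, + strand): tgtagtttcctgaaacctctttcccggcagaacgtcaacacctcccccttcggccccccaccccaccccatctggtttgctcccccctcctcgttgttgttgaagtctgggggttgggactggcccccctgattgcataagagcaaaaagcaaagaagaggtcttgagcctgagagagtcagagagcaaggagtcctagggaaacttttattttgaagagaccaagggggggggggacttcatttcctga
Epha7 (chr4:28812881-28813130, + strand): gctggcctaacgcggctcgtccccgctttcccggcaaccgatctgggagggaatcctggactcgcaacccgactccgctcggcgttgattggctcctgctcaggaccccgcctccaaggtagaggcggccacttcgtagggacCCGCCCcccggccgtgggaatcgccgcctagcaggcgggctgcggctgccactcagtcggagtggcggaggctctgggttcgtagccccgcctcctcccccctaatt
Ntrk2 (chr13:58806319-58806568, + strand): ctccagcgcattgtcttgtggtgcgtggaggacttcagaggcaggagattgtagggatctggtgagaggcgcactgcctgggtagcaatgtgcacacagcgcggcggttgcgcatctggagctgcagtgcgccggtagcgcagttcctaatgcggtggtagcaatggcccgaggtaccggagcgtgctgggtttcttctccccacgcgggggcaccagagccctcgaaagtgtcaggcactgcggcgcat

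The Met window holds 3 GC boxes and 1 AP-1 site, those of Kit and Epha7 hold 1 GC box each, and those of Pdgfra and Ntrk2 hold none of the 6 motifs. Kit and Epha7 each have a second window that overlaps the one shown. A GC box is present in 30 of the 43 windows of members (69.8%) and in 32.7% of all 32851 windows of the table. The other motifs are in few windows of members: the TATA box in 3 (6.98%, against 12.4% of all windows), the AP-1 site in 3 (6.98%, against 6.75%), the CRE in 2 (4.65%, against 1.55%), the GAS element in 1 (2.33%, against 7.02%) and the ISRE core in 0 (against 2.98%). Windows of members contain a median of 15 CpG dinucleotides, and all windows a median of 6. These are matches of letters only.

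The first question was what A-241 did to receptor genes in cells without IFNγ. Met, Fgfr1, Epha7, Ntrk2 and Pdgfra were called lower with A-241 than with DMSO at an edgeR adjusted p under 0.01, and no member was called higher. These are 5 of 26 members tested (19.2%), where 3.53% of all 11964 genes tested were called lower and 0.827% higher. Of the 26 members, 20 had a fold change below 0, as had 48.9% of all genes, and the median log2 fold change was -0.92, beside 0.01 over all genes. In 14 of the 26 (53.8%) all A-241 libraries were below all DMSO libraries, against 13.4% of all genes, and in Erbb3 and Tyro3 they were all above, against 13.3%. Pdgfra, Kit, Epha4 and Fgfr2, whose being lower is partly built in by the filter, are among the 14, and Pdgfra is among the 5 called. Among the 16 members with a mean of at least 5 CPM over all libraries, which leaves out Pdgfra, Kit, Epha4 and Fgfr2, 12 were below 0 and the median was -0.90, beside 0.02 over the 9268 genes at that level. Fewer cells and less RNA per cell cannot be told apart in such bulk samples, since all values are relative to the library total.

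Met, the receptor of hepatocyte growth factor (chr6:17463800-17573980, + strand, GRCm38), was at 28.5, 24.3 and 29.4 CPM in the DMSO libraries and at 14.5, 13.0 and 11.6 CPM with A-241. The highest A-241 library lay well below the lowest DMSO library. The log2 fold change was -1.06 (SE 0.17, edgeR adjusted p = 0.000764), and no single library left out ended the call. With A-485 Met was at 16.2, 19.8 and 16.3 CPM, again below all DMSO libraries, a log2 fold change of -0.64 (SE 0.17, edgeR adjusted p = 0.061) that did not pass. Hgf, its ligand, had no count in any library, and neither had Mst1r, the other receptor of this subfamily.

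Among the ErbB receptors, which bind EGF-like growth factors, none was called. Egfr was at 11.4, 12.2 and 10.4 CPM in DMSO and at 4.84, 6.01 and 6.74 CPM with A-241, without overlap, and its log2 fold change of -0.95 (SE 0.23, edgeR adjusted p = 0.0167) missed the threshold. Erbb2, which has no known ligand of its own, ranged from 10.6 to 22.8 CPM over all libraries and had a log2 fold change of -0.33 (95% interval -0.76 to 0.09) with A-241. With A-485 Erbb2 was at 11.6, 14.3 and 12.1 CPM, below all DMSO libraries at 18.3, 15.9 and 22.8 CPM, without a call. Erbb3, its kinase-impaired partner, had a log2 fold change of 1.18 (SE 0.41, edgeR adjusted p = 0.0895), with all A-241 libraries at 4.42 to 8.21 CPM above the DMSO libraries at 0.691 to 3.95 CPM. The lowest of those values came from DMSO replicate 3. Without DMSO replicate 3 and IFNγ replicate 2 the log2 fold change of Erbb3 was 0.80 (edgeR adjusted p = 0.07).

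Fgfr1, a fibroblast growth factor receptor (chr8:25513654-25575718, + strand), was at 50.8, 63.6 and 50.4 CPM in DMSO and at 25.2, 26.2 and 33.5 CPM with A-241. The groups did not overlap. The log2 fold change was -0.96 (SE 0.18, edgeR adjusted p = 0.00312), and without DMSO replicate 2, A-241 replicate 1 or A-241 replicate 2 the edgeR adjusted p was 0.0162, 0.0247 and 0.0238. With A-485 Fgfr1 was at 40.6, 42.9 and 39.5 CPM, a log2 fold change of -0.42 (SE 0.18, edgeR adjusted p = 0.345). Fgfr2 had 28 counts in DMSO and 5 with A-241, too few for a call (edgeR adjusted p = 0.0908), and Fgfr3 had a log2 fold change of 0.82 (edgeR adjusted p = 0.327). Without DMSO replicate 3 and IFNγ replicate 2, that of Fgfr3 was 0.40 with A-241 and -0.33 with A-485.

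In the PDGF receptor subfamily, Pdgfra and Kit were low in all conditions. Pdgfra (chr5:75152292-75198215, + strand) had 12, 14 and 9 counts in the DMSO libraries and 0, 3 and 0 with A-241, or 2.53, 2.21 and 3.11 CPM against 0, 0.601 and 0 CPM. The summed counts were 12.1-fold lower with A-241, with an exact 95% interval of 3.82 to 61.5 that covers counting error only. The edgeR adjusted p of Pdgfra was 0.00947, and the adjusted p exceeded 0.01 under 19 of 28 alternatives. Of the 18 libraries, leaving out any but A-241 replicate 2, A-485 replicate 2, IFNγ replicate 2 and A-241+IFNγ replicate 1 ended the call, and the edgeR adjusted p ran up to 0.0525, without A-241 replicate 3. With A-485 Pdgfra had 1, 5 and 1 counts, 5.44-fold lower than in DMSO (2.38 to 14.5, edgeR adjusted p = 0.0888). Kit, the receptor of stem cell factor (chr5:75574916-75656722, + strand), had 14, 15 and 5 counts in DMSO, 3, 3 and 3 with A-241, and for A-485 the counts were 4, 6 and 4. Every A-241 library was below every DMSO library, yet the edgeR adjusted p of 0.0114 missed the threshold with A-241, as did that of 0.122 with A-485.

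Of the Eph receptors, which bind ephrins on neighbouring cells, Epha7 was called (chr4:28813131-28967499, + strand). It was at 8.43, 9.0 and 14.5 CPM in DMSO, 3.37, 4.41 and 4.21 CPM with A-241 and 6.88, 5.92 and 4.65 CPM with A-485. Both inhibitor groups lay below all DMSO libraries, the A-241 group further. The log2 fold change was -1.38 (SE 0.27, edgeR adjusted p = 0.00322) with A-241 and -0.84 (SE 0.26, edgeR adjusted p = 0.126) for A-485. Without DMSO replicate 3 the edgeR adjusted p of the A-241 difference in Epha7 was 0.0142, and without A-241 replicate 1, 2 or 3 it was 0.0228, 0.0129 and 0.0149. Ephb4, a receptor of ephrin-B2, was at 8.43, 7.89 and 15.2 CPM in DMSO and 2.52, 3.00 and 4.21 CPM with A-241, without overlap and without a call (log2 fold change -1.65, SE 0.42, edgeR adjusted p = 0.0208).

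Epha4, Ephb4, Egfr, Flt1 and Fgfr3 were chosen for description after their values were seen. Epha4 had the lowest log2 fold change of the 26 members with A-485, with 23, 25 and 7 counts in DMSO, 4, 6 and 9 with A-241, and for A-485 the counts were 2, 1 and 3. Its summed count was 9.98-fold lower with A-485 (exact 95% interval 4.30 to 28.4) and 3.00-fold lower with A-241 (1.75 to 5.36). The edgeR adjusted p was 0.0187 with A-485 and 0.102 with A-241. Epha1, Epha2, Epha3 and Ephb6 were not called, and their log2 fold changes with A-241 were 0.71, -0.87, -0.89 and -1.14. That of Epha2 was -0.18 without DMSO replicate 3 and IFNγ replicate 2.

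Ntrk2, the receptor of brain-derived neurotrophic factor (chr13:58806569-59133970, + strand), was at 13.3, 13.9 and 19.7 CPM in DMSO, 7.57, 5.41 and 5.69 CPM with A-241 and 5.47, 6.68 and 8.37 CPM with A-485. Both inhibitor groups were below all DMSO libraries and overlapped each other. The log2 fold change was -1.31 (SE 0.27, edgeR adjusted p = 0.00511) for A-241 and -1.18 (SE 0.27, edgeR adjusted p = 0.0274) for A-485. Without DMSO replicate 3 the edgeR adjusted p of the A-241 difference in Ntrk2 was 0.0197, and without A-241 replicate 1, 2 or 3 it was 0.0115, 0.0337 and 0.0303. Ntrk2 was also lower with IFNγ alone, at 7.62, 9.23 and 7.69 CPM, a log2 fold change of -0.93 (SE 0.26, edgeR adjusted p = 0.116) that was not called.

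The remaining receptors tested were not called with A-241. Of the insulin receptor subfamily, Igf1r was at 6.16 to 6.96 CPM in DMSO and 3.20 to 4.0 CPM with A-241, a log2 fold change of -0.81 (edgeR adjusted p = 0.064), with all A-241 libraries below DMSO, and Insr one of 0.53 (edgeR adjusted p = 0.28). Of the TAM receptors, which bind Gas6 and Pros1, Axl had -0.85 (edgeR adjusted p = 0.0949), and Tyro3 had 0.70 (edgeR adjusted p = 0.176) with all A-241 libraries above DMSO. Tyro3 had 0.37 (edgeR adjusted p = 0.187) without DMSO replicate 3 and IFNγ replicate 2. Flt1, a VEGF receptor, was at 9.06, 12.0 and 11.4 CPM in DMSO, 4.63, 6.21 and 5.69 CPM with A-241 and 4.24, 8.59 and 5.81 CPM with A-485. All inhibitor libraries were below the DMSO libraries, and the log2 fold change of Flt1 was -0.97 with A-241 (edgeR adjusted p = 0.0417) and -0.80 with A-485 (edgeR adjusted p = 0.203). Ddr2, Ptk7 and Ryk, whose groups overlapped, had -0.22, -0.11 and 0.33. The value of Ryk was -0.17 without DMSO replicate 3 and IFNγ replicate 2.

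**Figure D2:**
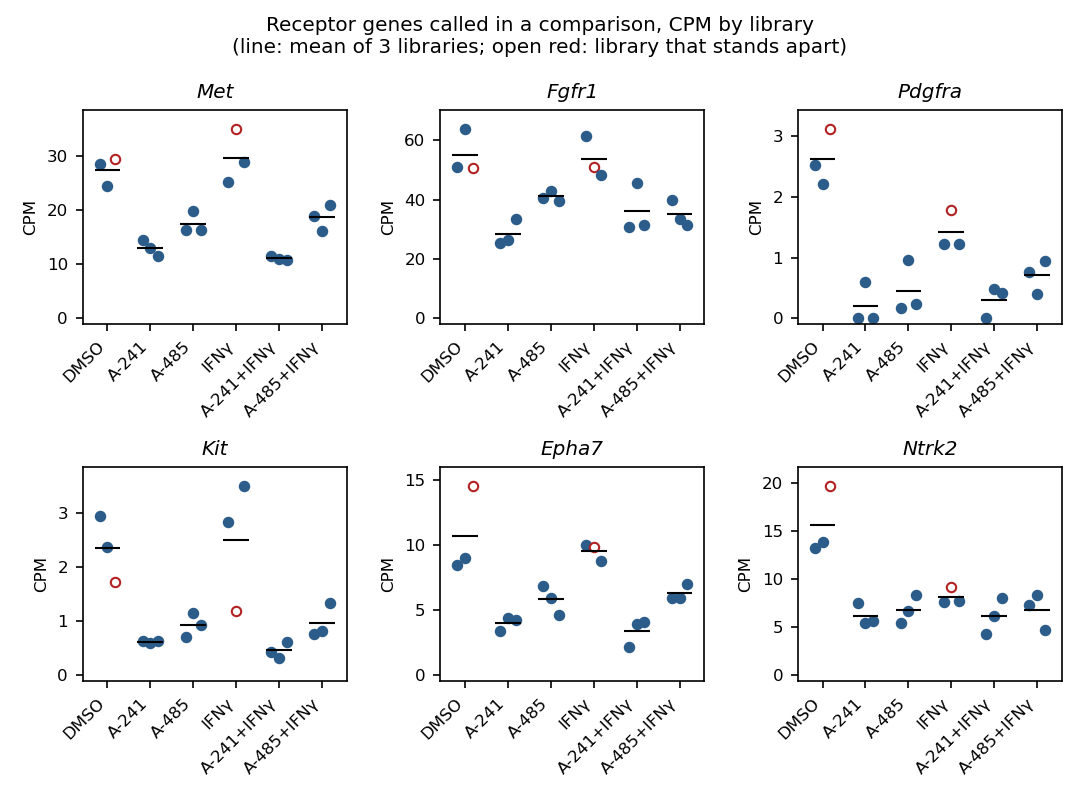
CPM of the 6 receptor genes called in at least 1 comparison, by library, in the 6 conditions, with the mean of 3 libraries as a line and the libraries that stand apart (DMSO replicate 3, IFNγ replicate 2) as open red circles. Met falls from 24.3 to 29.4 CPM in DMSO to 11.6 to 14.5 CPM with A-241, and from 25.2 to 34.9 CPM with IFNγ to 10.7 to 11.5 CPM with A-241+IFNγ.

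With A-485, 0 of the 26 members were called against DMSO by edgeR, where 0.619% of all genes were called lower and 0.0418% higher. DESeq2 called Epha4 and Ntrk2, where it called 1.94% of all genes lower and 0.0836% higher, and limma-voom called no member. At an unadjusted p under 0.05 there were 11 members, and 1472 of all 11964 genes. The median log2 fold change was -0.57, beside -0.00 over all genes, and 19 of 26 were below 0, as were 50.3% of all genes. In 12 of 26 members (46.2%) all A-485 libraries were below all DMSO libraries, against 8.84% of all genes, and in Erbb3 they were all above, against 7.07%. Pdgfra, Kit, Epha4 and Fgfr2, whose being lower is partly built in by the filter, are among the 12. Of the 16 members with a mean of at least 5 CPM, 12 were below 0. Their median was -0.50, beside 0.01 over the 9268 genes at that level. A-241 and A-485 are compared with the same DMSO libraries, so the 2 sets of fold changes share the noise of these libraries. Between the inhibitors, edgeR, DESeq2 and limma-voom called 0 members, where 0.351% of all genes were called lower and 0.0167% higher with A-241 by edgeR. An unadjusted p under 0.05 was found in 4 members and in 975 of all 11964 genes. The doses of the inhibitors differ, 250 nM and 1000 nM, and no matched dose was measured. The groups did not overlap in 6 members lower and 2 higher with A-241, against 11.3% and 11.2% of all genes. For Met the log2 difference of A-241 from A-485 was -0.42 (95% interval -0.75 to -0.09), for Fgfr1 -0.53 (-0.89 to -0.17), for Epha7 -0.55 (-1.08 to -0.01), for Ntrk2 -0.13 (-0.67 to 0.41) and for Epha4 1.66 (0.19 to 3.14).

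**Figure D3:**
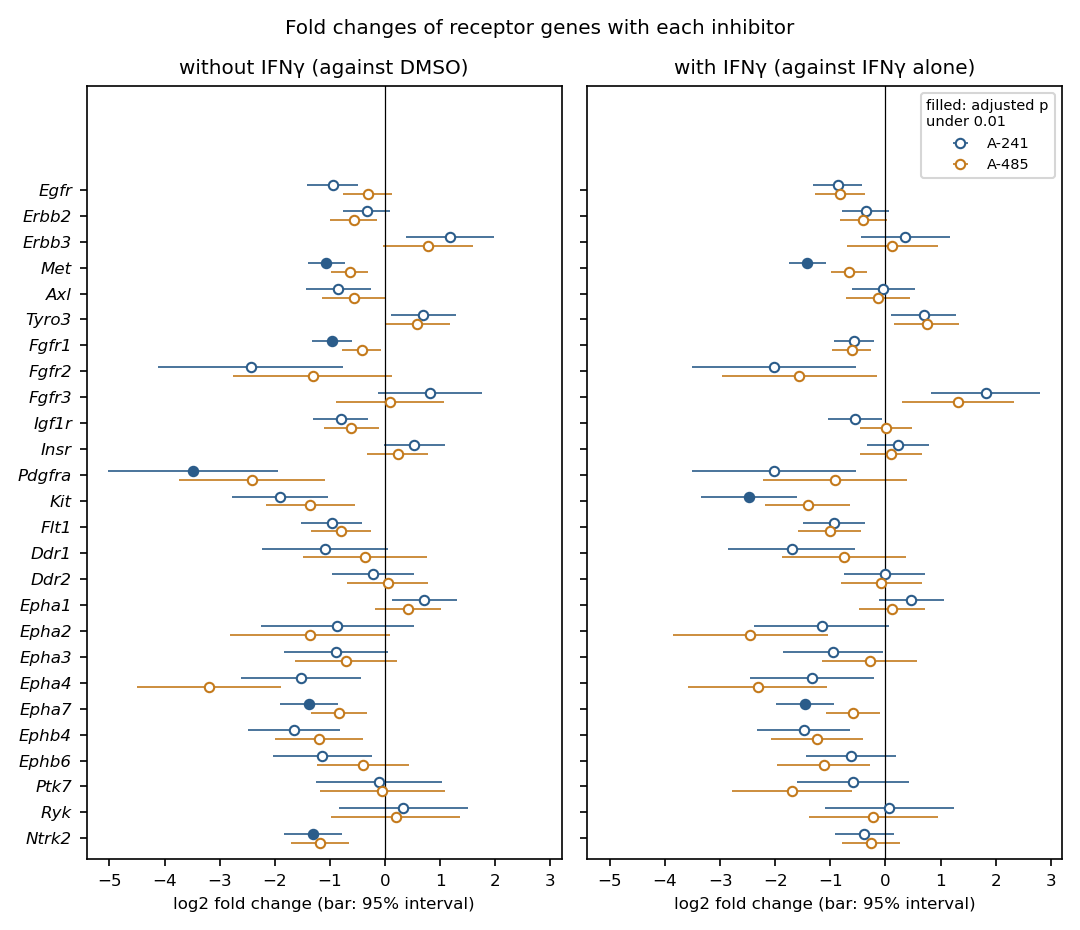
Log2 fold changes of the 26 receptor genes tested with A-241 (blue) and A-485 (orange), against DMSO in the left panel and against IFNγ alone in the right panel, with 95% intervals as bars and filled points for an edgeR adjusted p under 0.01. Most points lie left of 0 in both panels, filled points are seen for A-241 alone, and Erbb3, Tyro3 and Fgfr3 are among the genes to the right of 0 for both inhibitors. These genes were low in DMSO replicate 3 and IFNγ replicate 2. Without those libraries Fgfr3 was at -0.33 with A-485 and Erbb3 at -0.17 with A-485+IFNγ, and the other values of these genes stayed above 0.

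The second question was the effect of the inhibitors in IFNγ-treated cells. With A-241+IFNγ, Met, Kit and Epha7 were called lower than with IFNγ alone by edgeR, 3 of 26 (11.5%), where 3.54% of all genes were, and 0 members were called higher, where 0.543% of all genes were. The median log2 fold change was -0.61, beside -0.02 over all genes, and 20 of 26 members were below 0, as were 51.6% of all genes. In 9 of 26 members (34.6%) all libraries with A-241 were below all IFNγ libraries, against 12.1% of all genes, and in Tyro3, Fgfr3 and Epha1 they were all above, against 11.7%. Pdgfra and Kit, which passed the filter through conditions without inhibitor, are among the 9, and Kit is among the 3 called. Of the 16 members with a mean of at least 5 CPM, 12 were below 0. Their median was -0.56, beside -0.01 over the 9268 genes at that level. Met was at 25.2, 34.9 and 28.9 CPM with IFNγ and at 11.5, 10.9 and 10.7 CPM with A-241+IFNγ, a log2 fold change of -1.41 (SE 0.17, edgeR adjusted p = 5.35e-05). In the fit of all 18 libraries this was the smallest adjusted p of a member in any comparison, and it kept below 0.01 with any single library left out.

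Kit had 23, 4 and 20 counts with IFNγ and 2, 2 and 3 with A-241+IFNγ, so the groups did not overlap. The summed count was 6.08-fold lower with A-241+IFNγ (exact 95% interval 2.73 to 15.9), with an edgeR adjusted p of 0.00209. Without IFNγ replicate 1 or 3 the edgeR adjusted p of Kit was 0.0105 and 0.0129, and without A-241+IFNγ replicate 1 or 2 it was 0.0145 and 0.0199. Epha7 was at 9.96, 9.83 and 8.74 CPM with IFNγ and at 2.18, 3.91 and 4.12 CPM with A-241+IFNγ, without overlap, a log2 fold change of -1.46 (SE 0.27, edgeR adjusted p = 0.00221). Without A-241+IFNγ replicate 1 the edgeR adjusted p of Epha7 was 0.0144. Egfr and Ephb4 were lower without passing (log2 fold changes -0.87 and -1.48, edgeR adjusted p = 0.0274 and 0.0462), and Fgfr3 was higher in all libraries without passing (1.82, SE 0.51, edgeR adjusted p = 0.0356). Fgfr1, Pdgfra and Ntrk2, called with A-241 in cells without IFNγ, had log2 fold changes of -0.57, -2.02 and -0.39 here.

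With A-485+IFNγ against IFNγ alone, edgeR, DESeq2 and limma-voom called 0 members, where 0.535% of all genes were called lower and 0.0167% higher by edgeR. An unadjusted p under 0.05 was found in 14 members and in 1760 of all 11964 genes. The median log2 fold change was -0.60, beside -0.03 over all genes, and 20 of 26 members were below 0, as were 53.1% of all genes. Met was at 18.9, 16.1 and 20.9 CPM with A-485+IFNγ, below all IFNγ libraries, a log2 fold change of -0.66 (SE 0.17, edgeR adjusted p = 0.0562). In 8 of 26 members (30.8%) the groups did not overlap and A-485+IFNγ was lower, against 10% of all genes, and in Tyro3 and Fgfr3 it was higher, against 10.6%. Pdgfra, which passed the filter through DMSO libraries, is among the 8, as is Epha2, which reached the cutoff in no library with A-485. Of the 16 members with a mean of at least 5 CPM, 12 were below 0. Their median was -0.50, beside -0.01 over the 9268 genes at that level. Between A-241+IFNγ and A-485+IFNγ, edgeR, DESeq2 and limma-voom called 0 members, where 0.510% of all genes were called lower and 0.00836% higher by edgeR. An unadjusted p under 0.05 was found in 3 members and in 778 of all 11964 genes. Met was the closest, with a log2 difference of -0.75 (95% interval -1.09 to -0.42, edgeR adjusted p = 0.0511) and all A-241+IFNγ libraries below all A-485+IFNγ libraries. The groups did not overlap in 5 members lower with A-241+IFNγ, against 11.8% of all genes, and in 1 higher, against 7.96%.

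The third question was whether IFNγ itself changed receptor genes over 2 h. Against DMSO, edgeR, DESeq2 and limma-voom called 0 of 26 members, where 0.10% of all genes were called lower and 1.20% higher by edgeR. Ntrk2 and Ptk7 had an unadjusted p under 0.05, 2 of 26 members, as had 1016 of all 11964 genes. The median log2 fold change was -0.03, beside -0.00 over all genes, and 14 of 26 were below 0, as were 50.3% of all genes. The groups did not overlap in Pdgfra and Ntrk2, lower with IFNγ (3.69% of all genes), and in no member higher (4.16%). Met was at 25.2 to 34.9 CPM with IFNγ and 24.3 to 29.4 CPM without, and Fgfr1 at 48.3 to 61.3 CPM and 50.4 to 63.6 CPM, so these ranges overlapped. Ptk7, a Wnt co-receptor with an inactive kinase, had a log2 fold change of 1.28 (SE 0.54, edgeR adjusted p = 0.483) with 7, 51 and 7 counts in DMSO and 122, 15 and 61 with IFNγ. Its libraries differed severalfold within each condition. In cells with either inhibitor, IFNγ gave 0 calls among members by edgeR, DESeq2 and limma-voom. With A-241 edgeR called 0.192% of all genes higher and 0% lower, and 0 members had an unadjusted p under 0.05. With A-485 edgeR called 0.744% higher and 0.0585% lower, and 2 members had an unadjusted p under 0.05. Without overlap, 1 member was lower and 3 were higher with A-241+IFNγ than with A-241 (7.2% and 6.08% of all genes), and 2 were lower and 2 higher with A-485+IFNγ than with A-485 (8.50% and 9.49%). The interaction, which is the response to IFNγ with an inhibitor minus that without, gave 0 calls among members by edgeR, DESeq2 and limma-voom. This held with A-241 (0.0334% of all genes lower, 0% higher) and with A-485 (0% in both directions). At an unadjusted p under 0.05 there were 401 of all 11964 genes with A-241 and 499 with A-485. Ntrk2 was the 1 member at that level in each interaction. Its interaction was 0.93 with A-241 (95% interval 0.18 to 1.67) and 0.92 with A-485 (0.18 to 1.67), and the edgeR adjusted p was 1.00 in both.

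DMSO replicate 3 and IFNγ replicate 2 weigh on the receptor genes unevenly. Ddr1 (chr17:35681567-35704621, - strand) had 786, 950 and 65 counts in DMSO and 2398, 162 and 1840 with IFNγ, and Ryk had 525, 1235 and 73 and 1839, 91 and 1032. Each was several times lower in these libraries than in the others of its condition. Ddr1, Ryk, Fgfr3, Erbb3 and Tyro3 were lower by over 1 on the log2 CPM scale in both libraries, 5 of 26 members (19.2%), as were 13.5% of all genes. In IFNγ replicate 2 alone 9 of 26 members were lower by over 1 (34.6%, against 20.1% of all genes). Among them was Kit, whose difference there was -1.16, while the other members called with all libraries, Met, Fgfr1, Pdgfra, Epha7 and Ntrk2, differed by at most 0.71 in either library. Ephb4 was higher in both, by 0.87 and 1.58.

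**Figure D4:**
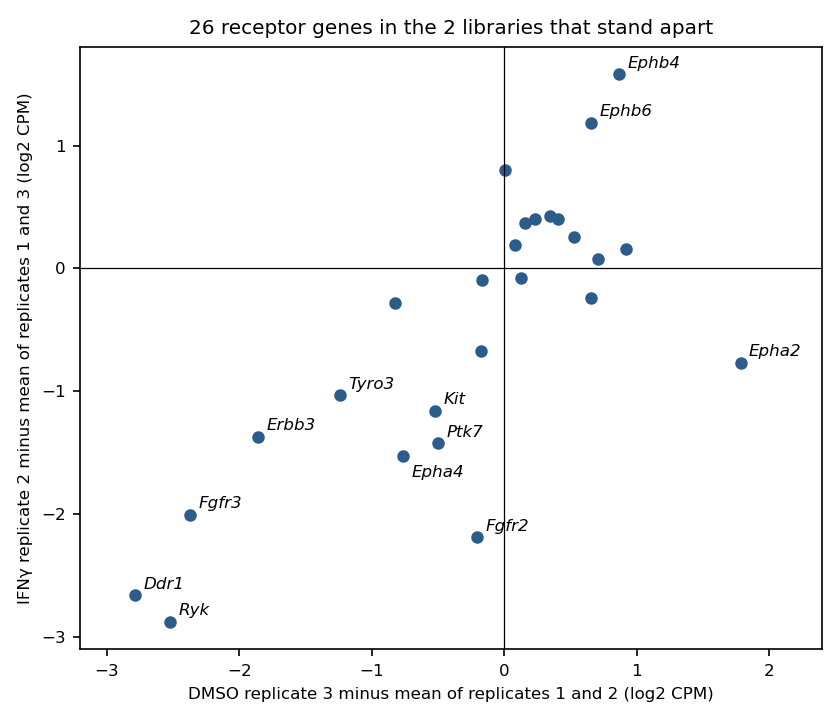
For each of the 26 receptor genes tested, log2 CPM in DMSO replicate 3 minus the mean of the other DMSO libraries (horizontal) and in IFNγ replicate 2 minus the mean of the other IFNγ libraries (vertical), with names for genes beyond 1 on either axis. Ddr1 and Ryk lie near -2.5 or below on both axes, and most members lie within 1 of 0.

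Without these libraries Ddr1 was called in 7 comparisons, and it is described in full after its values were seen. The remaining DMSO libraries had 166 and 150 CPM of Ddr1, A-241 had 58.3, 50.9 and 51.2 CPM and A-485 had 80.7, 72.3 and 111 CPM. With IFNγ the remaining libraries had 295 and 322 CPM, A-241+IFNγ had 62.6, 73.9 and 68.7 CPM and A-485+IFNγ had 123, 152 and 123 CPM. The order was therefore the same without and with IFNγ, with the control highest and A-241 lowest. In the fit without both libraries the log2 fold change of Ddr1 against DMSO was -1.60 with A-241 (edgeR adjusted p = 8.38e-07) and -0.88 with A-485 (edgeR adjusted p = 0.00184). Against IFNγ alone it was -2.18 with A-241+IFNγ (edgeR adjusted p = 9.82e-09) and -1.23 with A-485+IFNγ (edgeR adjusted p = 5.75e-05). The difference of A-241 from A-485 was -0.72 without IFNγ (edgeR adjusted p = 0.00738) and -0.95 with it (edgeR adjusted p = 0.000504). Ddr1 was higher with IFNγ than with DMSO (0.95, edgeR adjusted p = 0.00197). With all 18 libraries none of these was called, and the log2 fold change of Ddr1 was -1.08 (SE 0.58, edgeR adjusted p = 0.283) with A-241 and 0.97 (SE 0.58, edgeR adjusted p = 0.752) with IFNγ.

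In that fit without both libraries, edgeR called 9 members lower for A-241 against DMSO, where 6.52% of all genes were called lower and 1.61% higher. These were the 5 called with all libraries and Ddr1, Egfr, Ephb4 and Kit. With A-485 Ddr1 and Epha4 were lower (2.28% of all genes, and 0.173% higher), and Epha4 had a log2 fold change of -3.42 (edgeR adjusted p = 0.00111). With A-241+IFNγ Ddr1, Egfr, Epha7, Kit and Met were lower (5.88%) and Fgfr3 was higher (1.94%), with a log2 fold change of 1.45 (edgeR adjusted p = 0.00324). With A-485+IFNγ Ddr1, Egfr and Epha4 were lower (2.37%, and 0.313% higher). Of the members called lower with an inhibitor in this fit, Pdgfra, Kit and Epha4 reached the cutoff of the filter only in conditions without inhibitor. Their being lower is therefore partly built in by the filter. Egfr had a log2 fold change of -1.04 (edgeR adjusted p = 0.00323) with A-241, -1.05 (0.00221) with A-241+IFNγ and -1.01 (0.00728) with A-485+IFNγ, each p being the edgeR adjusted p. The calls of Ddr1 between the inhibitors stand beside 1.48% of all genes lower and 0.247% higher without IFNγ and 1.24% and 0.0577% with it. The call of Ddr1 with IFNγ stands beside 1.62% of all genes higher and 0.412% lower.

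**Figure D5:**
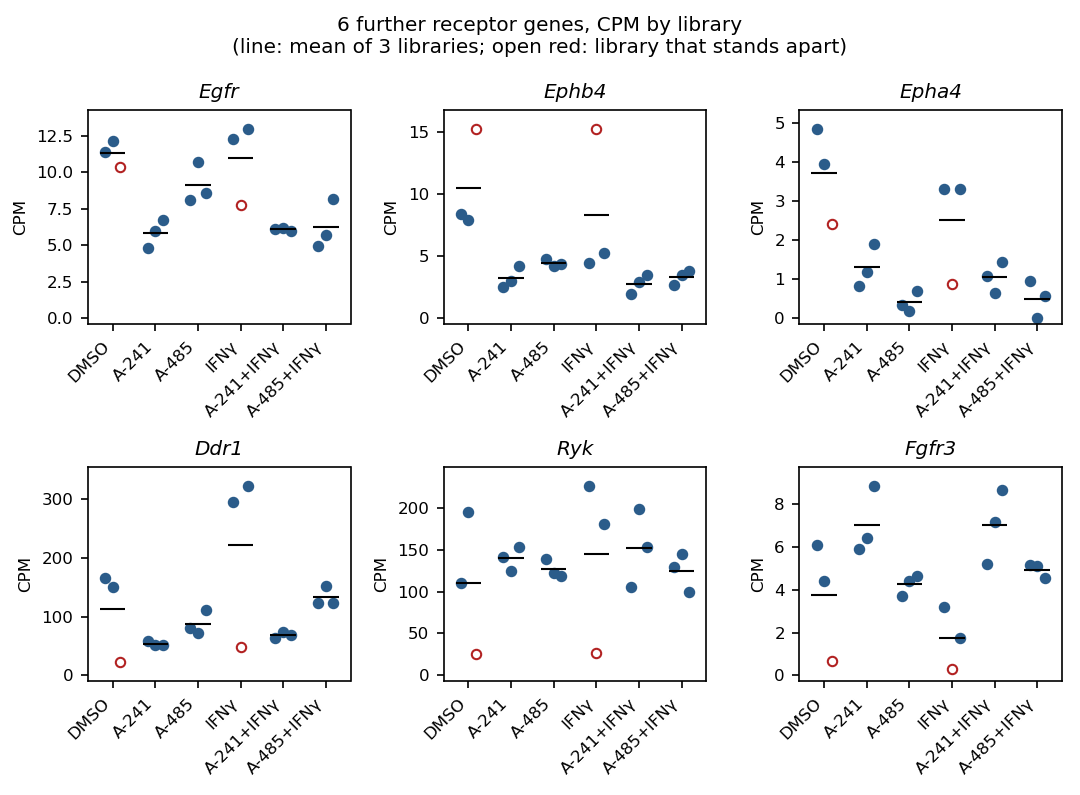
CPM of Egfr, Ephb4, Epha4, Ddr1, Ryk and Fgfr3 by library in the 6 conditions, with the mean of 3 libraries as a line and DMSO replicate 3 and IFNγ replicate 2 as open red circles. Ddr1 is at 150 to 166 CPM in DMSO and 295 to 322 CPM with IFNγ in the filled circles and at 22.5 and 48.3 CPM in the open ones, while Ephb4 reaches 15.2 CPM in both open circles.

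Genes that act with the receptors were counted in lists. Of 57 ligands 21 were tested, and with A-241 Csf1, Kitl, Il34, Efnb1 and Pdgfa fell and Hbegf, an EGF receptor ligand, rose, 23.8% of the ligands lower and 4.76% higher, against 3.53% and 0.827% of all genes. Kitl, the ligand of Kit, had a mean of 32.9 CPM in DMSO, 10.6 CPM with A-241 and 12.3 CPM with A-485, with a log2 fold change of -1.64 (SE 0.21, edgeR adjusted p = 0.000111) with A-241. The receptor of this pair, Kit, was itself below DMSO in every A-241 library. Csf1 had -1.64 (edgeR adjusted p = 6.83e-05) and Il34 -3.76 (edgeR adjusted p = 0.000536), while their receptor Csf1r had 6 counts in all. Pdgfa and Hbegf are named after their values were seen. Pdgfa, a ligand of Pdgfra, had -1.05 (edgeR adjusted p = 0.00427), and Hbegf 1.19 (edgeR adjusted p = 0.00144). With A-485 Efnb1, an ephrin, Kitl and Il34 fell (14.3%, against 0.619% of all genes). With A-241+IFNγ 6 ligands fell (28.6%, against 3.54% of all genes), and of them Csf1, Kitl, Vegfc and Pdgfc had log2 fold changes of -1.63, -1.56, -3.15 and -1.88, while with A-485+IFNγ Csf1 alone fell (4.76%, against 0.535%). Csf1 was the 1 ligand that rose with IFNγ (0.98, edgeR adjusted p = 0.00506), 4.76% of the ligands where 1.20% of all genes rose.

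Of 34 adaptors and transducers 28 were tested. With A-241 Irs1, Pik3r1 and Plcg2 fell by edgeR (10.7%, where 3.53% of all genes were called lower) and none rose (0.827% of all genes). Irs1, the docking protein of the insulin and IGF receptors, had a log2 fold change of -3.23 (SE 0.43, edgeR adjusted p = 0.000131), and Pik3r1, the p85α subunit of PI3-kinase, -1.69 (SE 0.21, edgeR adjusted p = 8.19e-05). With A-241+IFNγ Irs1 (-2.71, edgeR adjusted p = 0.000639) and Pik3r1 (-1.97, edgeR adjusted p = 1.77e-05) fell, and Pik3r1 was lower than with A-485+IFNγ as well (-1.57, edgeR adjusted p = 0.00105). These were 2 of 28 adaptors (7.14%, against 3.54% of all genes) and 1 of 28 (3.57%, against 0.510%). Pik3r1 was also the 1 adaptor that rose with A-485+IFNγ against A-485 (1.51, edgeR adjusted p = 0.000542), where 0.744% of all genes rose. Of 21 negative regulators 16 were tested, and Cblb, a ubiquitin ligase that targets activated receptors, fell with A-241+IFNγ (-1.63, edgeR adjusted p = 0.0013) as the single call, 6.25% of the list where 3.54% of all genes were called lower. Of 16 further receptor tyrosine kinases outside the 42, 2 were tested, and Ephb3 fell with A-241, A-485 and IFNγ, each against DMSO, with log2 fold changes of -1.45, -1.75 and -1.87. It was 1 of 2 genes in each, where 3.53%, 0.619% and 0.10% of all genes were called lower. The comparisons share the DMSO libraries, so the falls are not independent.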

How the data were processed

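QuantSeq 3′ libraries from AT3 cells, 18 in number, covered 6 conditions in triplicate. The authors converted the reads with bcl2fastq 2.17.1.14, checked them with FastQC 0.11.5, trimmed them with cutadapt 1.7, aligned them to GRCm38/mm10 with HISAT2 2.1.0 and counted them on exons with featureCounts, without a strand option and with reads over several genes counted for each. What the authors deposited is a table of raw counts for each gene, neither normalized nor collapsed by molecular identifiers, and the annotation release is not given in the sources used here. Identifiers were matched to GENCODE vM21 (42548 of 43629), and the 1081 unmatched ones held 0.403% of all counts and stayed in the totals.

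Genes were filtered with filterByExpr by condition, scaled by TMM factors and tested with edgeR 4.0.16 (glmQLFit, glmQLFTest, R 4.3.3) in 1 fit of all libraries with a mean per condition. Benjamini-Hochberg adjustment ran over the 11964 genes kept, and a gene counted as called below an adjusted p of 0.01. CPM are TMM-scaled, and log2 CPM use a prior count of 2. The SE of a log2 fold change is its size divided by the square root of its F. Counts between 3417167 and 7856830 per library make 3 counts equal to 0.369 to 1.04 CPM. Ratios of summed counts have exact conditional 95% intervals, which cover counting error only. The fit was tested on simulated data. The alternatives were DESeq2 1.42.0, limma-voom (limma 3.58.1), other filters and scalings, the replicate number as a block, only the groups compared, an adjusted p under 0.05, each library left out in turn and DMSO replicate 3 and IFNγ replicate 2 left out together. The latter with limma-voom was added after seeing the data. The members, the lists and the tests were chosen with earlier results of these data known. Members called anywhere are given with every library, the others by level, range or count, and up to 4 called genes of each other list and comparison by smallest adjusted p.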

Additional observations from a re-analysis of the deposited data

How the results depend on the processing

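Of the member differences called under at least 1 setting, that of Ddr1 with A-485 against DMSO changed sign, from a log2 fold change of -0.37 to 0.06 with limma-voom and 0.01 without DMSO replicate 1, and was not called there. The others kept their direction under the alternatives run. The number of members called with A-241 against DMSO was 5, and it was 3 without the filter on low counts, 3 with total counts as scaling, 3 with the replicate number as a block, 0 when only the groups compared were fitted, 9 at an adjusted p under 0.05, 9 without DMSO replicate 3 and IFNγ replicate 2 together and 9 with limma-voom when both libraries were also left out. With limma-voom on all 18 libraries the counts were those of edgeR. With 1 library left out it ranged from 1 (without A-241 replicate 1) to 8 (without IFNγ replicate 2). For A-241 against DMSO, 1.76% of all genes were called lower and 0.195% higher without the filter on low counts. The shares were 3.03% and 0.886% with total counts, and 2.95% and 0.468% with the replicate block. They were 0.667% and 0.00901% with only the groups compared, and 6.2% and 2.87% at an adjusted p under 0.05. By limma-voom without both libraries they were 6.16% and 1.51%. With A-241+IFNγ against IFNγ the number of members called was 3, and it was 0 when only the groups compared were fitted. In that fit Met and Epha7 lost the call (edgeR adjusted p = 0.0186 and 0.0650), and Kit did not pass the filter and was not tested. The number called was 6 at an adjusted p under 0.05, 6 without both libraries and 6 with limma-voom without both libraries. With 1 library left out it ranged from 1 (without A-241+IFNγ replicate 1) to 5 (without IFNγ replicate 2). Of all genes, 3.54% were called lower and 0.543% higher in the reported fit, and 0.725% and 0.00885% with only the groups compared. At an adjusted p under 0.05 the shares were 5.77% and 1.91%, and without both libraries 5.88% and 1.94%. With A-485 against DMSO the number of members called was 0, and with 1 library left out 0 to 1 (without IFNγ replicate 2). It was 2 with DESeq2, 2 at an adjusted p under 0.05, 2 without both libraries and 2 with limma-voom without both libraries. At an adjusted p under 0.05, 1.94% of all genes were called lower with A-485 and 0.1% higher. By limma-voom without both libraries these shares were 2.37% and 0.157%. Without both libraries, by edgeR and by limma-voom alike, the number of members called rose from 0 to 1 for IFNγ against DMSO, to 1 for A-241 against A-485, to 3 for A-485+IFNγ against IFNγ and to 1 for A-241+IFNγ against A-485+IFNγ. The last was also 1 when only the groups compared were fitted, where 1.24% of all genes were called lower and 0.0358% higher. For these 4 comparisons the range with 1 library left out was 0 to 0. Their shares of all genes without both libraries by edgeR are given above. The cause of the differences between the fit of only the groups compared and that of all libraries was not tested. The calls in the lists of ligands, adaptors, regulators and further receptors are from the reported fit and also depend on the setting. Over all comparisons and alternatives, the number called in a list moved beyond a set ratio, or to or from 0, in 77 cases. Of these, 15 were with only the groups compared and 13 without both libraries by edgeR.

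The replicate numbers do not pair the libraries: same-numbered libraries had a median correlation of -0.018 in their deviations, 15 of 45 pairs were above 0.1, and 5 of 18 libraries correlated best with their own number, so the replicate block has no meaning beyond a number. Under it 3 members, Met, Fgfr1 and Epha7, were called with A-241 against DMSO. Scaling by total counts moved the median of all genes to 0.12 for A-241 against DMSO and 0.13 for A-241+IFNγ against IFNγ. In these comparisons the median of members stayed between -0.98 and -0.81 and between -0.83 and -0.39 over the reported fit and 29 alternatives. Depth limits the 16 untested members and those near 10 counts, Pdgfra, Kit, Epha4 and Fgfr2.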
